A study of Homo sapiens with 6 samples.

Results

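Heat shock proteins and the co-chaperones that work with them were examined in PANC-1 cells after knockdown of CD73. The set had 45 genes, listed by symbol as heat shock factors, heat shock protein (HSP) families, J-domain proteins, BAG proteins, further co-chaperones and chaperonin subunits, and all 45 were found by Ensembl identifier among the 30735 genes of each sample. They were picked by name. It is called cytosolic, but HSPA9, HSPD1, HSPE1, TRAP1 and DNAJA3 encode mitochondrial proteins and HSPB11 encodes a ciliary transport protein now named IFT25. PANC-1 is a long-established line grown from a ductal carcinoma of the human pancreas. Its RNA was sequenced in 6 samples, of which 3 had received siRNA against CD73 and 3 a negative control. Both groups were grown in DMEM with fetal bovine serum and received Lipofectamine in serum-free medium, so the transfection itself is shared by every sample. The sequence of the siRNA, its dose and the time of harvest for sequencing were not given in the sources used here.

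Cytosolic HSP70 and HSP90 proteins bind unfolded or unstable client proteins and release them through cycles of ATP binding and hydrolysis. J-domain proteins deliver clients to HSP70 and start its ATP hydrolysis, BAG proteins release the nucleotide, and HSP90 co-chaperones set the pace of its cycle or bring it particular clients, such as kinases through CDC37. The CCT chaperonin is a double ring of different subunits that folds actin and tubulin. When unfolded proteins accumulate, heat shock factor 1 (HSF1) binds heat shock elements, runs of the unit GAA in alternating orientation, and induces many of these genes. Tumour cells often hold high levels of several of them without any heat shock.

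The gene of CD73, NT5E, was at 3.36, 6.85 and 8.22 RPKM in CD73 siRNA replicates 1, 2 and 3. RPKM stands for reads scaled to transcript length and library total. In the negative controls NT5E was at 14.0, 13.9 and 17.1 RPKM, so the groups did not overlap. Its log2 fold change was -1.23 (limma, unadjusted p = 0.00144, adjusted p = 0.303). Library totals lay between 15009113 and 16836207 reads. Of 6 ductal epithelial markers, 5 reached 1 RPKM (KRT8, KRT18, KRT19, EPCAM and CDH1) and KRT7 stayed below it. Their summed level was 71.4 to 102 RPKM with CD73 siRNA and 136 to 254 RPKM in the negative controls, so the sum did not overlap between the groups. A sum rests mostly on its most abundant genes, and the markers were not compared singly. Their part in the results on chaperones was not tested. None of the leukocyte, endothelial, acinar or islet markers reached 1 RPKM, and of the fibroblast markers COL1A1 and COL3A1 did, with sums of 17.5 to 31.0 and 18.8 to 31.4 RPKM in the CD73 siRNA and control groups. The negative control replicate 1 correlated least with the other samples (mean 0.967, against 0.973 to 0.977), and it held the lowest value of the 6 samples in 13 of the 44 tested chaperone genes (29.5%) and in 26.1% of all genes tested. The 13 genes are therefore given with and without it. In bulk samples a change in the kinds of cells and a change in RNA per cell cannot be told apart.

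The promoters of several of these genes carry the heat shock element itself, shown here for every gene with an element of 3 units and for HSPA1A, the classical heat-inducible HSP70 gene, which has 2 units in its window. Each stretch of 30 bases is read 5′ to 3′ on the strand of the gene from RefSeq promoter windows of GRCh38.p14, and capitals mark the element.
HSPA1A, chr6:31815426-31815455, + strand: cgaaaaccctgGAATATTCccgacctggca
HSPA6, chr1:161524458-161524487, + strand: cggaaaggTTCGCGAAAGTTCgcggcggcg
HSPA8, chr11:123062170-123062199, - strand: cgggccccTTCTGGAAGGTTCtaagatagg
HSP90AA1, chr14:102087111-102087140, - strand: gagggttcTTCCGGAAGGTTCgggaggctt
HSP90AB1, chr6:44247823-44247852, + strand: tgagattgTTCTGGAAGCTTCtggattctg
HSPD1, chr2:197500061-197500090, - strand: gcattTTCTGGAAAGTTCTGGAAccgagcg
DNAJA1, chr9:33025268-33025297, + strand: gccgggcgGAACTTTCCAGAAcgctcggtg
DNAJB6, chr7:157336865-157336894, + strand: agagccgaGAACCTTCGCGAAggtggggcg
CHORDC1, chr11:90223083-90223112, - strand: ccgGAAAATTCGCGAAGGTTCCTGAAacgc
The longest run, 23 bases, was in CHORDC1, and its first base lay at -60 from the transcription start. The elements shown started at -55 in HSPA8, at -88 in HSP90AA1, at -112 in HSP90AB1 and at 4 in DNAJA1, just inside the transcript. In HSPD1 the element started at -245. Windows around other starts of HSPD1, HSP90AA1 and HSP90AB1 held no element.

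The windows run from 250 bases before to 50 bases after a start, and 40 of the 45 genes had at least 1 window. CCT6A, FKBP4, HSF1, HSPA14 and STUB1 were the others. A pair of units was searched as GAANNTTC or TTCNNGAA and 3 units as GAANNTTCNNGAA or TTCNNGAANNTTC, which reads both strands, and every 3-unit match contains pairs. Of the 56 windows of these genes, 37.5% held a pair, against 13.5% of all 35116 windows. The 3-unit element was in 14.3% of their windows and in 0.49% of all windows. By gene, 20 of the 40 held a pair and 8 held 3 units. A match is a stretch of letters and does not show binding, and a window without these letters says nothing about HSF1.

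None of the chaperone genes differed between CD73 siRNA and negative control at an unadjusted p below 0.01. The study's text gives a p below 0.01 for changed genes, without stating whether it was adjusted. HSPA6 was below the filter of 1 RPKM in at least 3 samples, which left 44 genes among the 12527 tested. At that threshold limma called 0 of the 44, while 3.13% of all genes tested were called. At an adjusted p below 0.05 it called 0 of the 44, against 0.00798% of all genes, which is 1 gene. The smallest adjusted p among the chaperone genes was 0.343. On log2(RPKM + 1), a scale that understates the changes of low genes, the fold changes ran from -0.33 for CDC37 to 0.54 for HSPD1, with 25 above and 19 below 0. Their median was 0.019, and over all genes tested it was 0.0091.

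At the looser limit of an unadjusted p below 0.05, 5 genes were higher with CD73 siRNA (CCT5, DNAJA1, DNAJB4, HSP90AA1 and HSPD1; 7.22% of all genes) and DNAJB6 was lower (4.9% of all genes). The 3 samples of each group did not overlap in 6 genes that were higher (BAG1, CCT5, DNAJA2, DNAJB4, HSP90AA1 and HSPD1; 10.3% of all genes) and in 2 that were lower (DNAJB6 and HSPE1; 8.07% of all genes). The shares among the chaperone genes, 13.6% and 4.55%, were a little above the first background and a little below the second. On the scale of log2(RPKM + 1) the estimates leave limited room for large changes. For 26 of the 44 genes the 95% confidence interval of the log2 fold change lay within -0.5 to 0.5, and for no gene did it reach 1 or -1. These limits hold for that scale only, which narrows both estimate and interval in low genes. Of the 44 genes, 9 had a mean under 10 RPKM. With a pseudocount of 0.1 the log2 fold change of FKBP5 was 0.526 in place of 0.42. Intervals under that pseudocount were not computed.

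**Figure D1:**
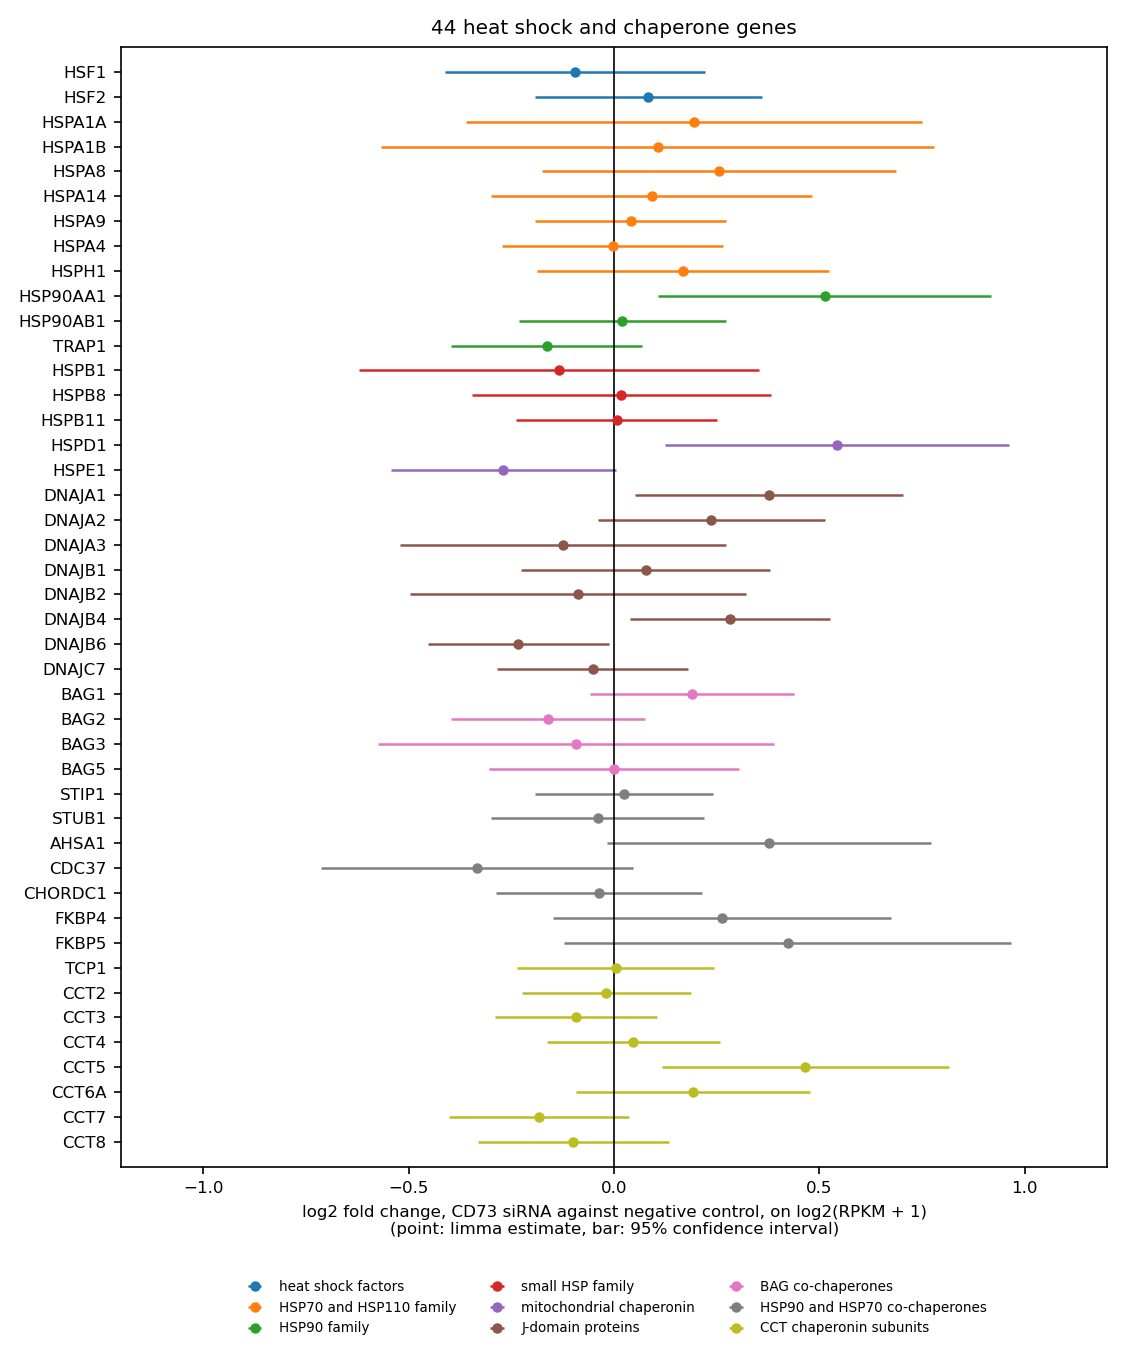
Log2 fold change of the 44 tested chaperone genes, CD73 siRNA against negative control, on log2(RPKM + 1), coloured by role, with points for the limma estimate and bars for its 95% confidence interval (n = 3 per group). The intervals of 6 genes exclude 0, those of HSP90AA1, HSPD1, DNAJA1, DNAJB4 and CCT5 on the side of CD73 siRNA and that of DNAJB6 on the side of the negative control.

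The level of these genes was high in both groups. RPKM is a level per length, here that of all annotated exons merged. Levels of different genes therefore compare only roughly, and the sequence shared or overlapping with other genes also differs between them. Of the 44 genes, 15 exceeded a mean of 100 RPKM over the 6 samples, as 2.24% of all genes tested did. The median gene of the set stood at percentile 89.8 of all mean levels. HSP90AB1 had the highest value at 1055 RPKM, followed by HSPA8 at 541 RPKM and HSP90AA1 at 364 RPKM. The lowest tested gene was HSPB8, at 1.83 RPKM. Summed over the 45 genes, the level was 4961 ± 332 RPKM with CD73 siRNA and 4540 ± 286 RPKM in the negative controls (SD, n = 3 each), and the groups overlapped, with 4631 to 5295 RPKM against 4369 to 4870 RPKM.

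The heat shock factors were expressed at moderate levels. HSF1, the main stress-responsive factor, was at 25.0, 33.0 and 27.5 RPKM in CD73 siRNA replicates 1 to 3 and at 30.7, 34.1 and 26.5 RPKM in the negative controls. The groups overlapped, with the highest sample among the controls and the lowest among the CD73 siRNA samples. HSF1 had a log2 fold change of -0.09 (95% interval -0.41 to 0.22, adjusted p = 0.817). That of HSF2, a related factor, was 0.08 (-0.19 to 0.36), or 0.01 without negative control replicate 1, at a mean of 18.5 RPKM. HSF1 is controlled mostly at the protein level, which these data do not show.

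The heat-inducible HSP70 genes did not separate the groups. HSPA1A was at 26.9, 17.8 and 25.8 RPKM with CD73 siRNA and at 19.4, 14.7 and 28.4 RPKM in the negative controls. HSPA1B, which encodes the same protein from a neighbouring gene on chromosome 6, was at 18.5, 13.2 and 22.7 RPKM against 18.1, 10.2 and 23.5 RPKM. In both genes replicate 2 was the lowest and, among the controls, replicate 3 the highest, so the replicates of a group differed more than the groups did. Their log2 fold changes were 0.19 (-0.36 to 0.75, adjusted p = 0.775) and 0.11 (-0.57 to 0.78, adjusted p = 0.91). In GENCODE release 29, 71.3% of the 50-base windows of HSPA1A also occur in another gene, HSPA1B foremost, and how reads shared by such copies were assigned was not given in the sources used here. HSPA1B is also overlapped by AL671762.1 on the same strand over 36.5% of its exons. The separate values of HSPA1A and HSPA1B are therefore uncertain.

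HSPA6, a strictly inducible HSP70, was at the limit of detection. It was listed at 0.42, 0.375 and 0.701 RPKM with CD73 siRNA and at 0.736, 0.407 and 0.899 RPKM in the negative controls, which corresponds to 14 to 32 reads. The groups overlapped (exact permutation test, two-sided, p = 0.3), and 45.5% of its windows are shared with HSPA7.

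HSPA8, the constitutive HSP70 of the cytosol, was at 687, 462 and 618 RPKM with CD73 siRNA and at 484, 398 and 597 RPKM in the negative controls. It was higher with CD73 siRNA within each replicate number, but replicate 2 of the CD73 siRNA group lay below 2 of the controls. Its log2 fold change was 0.26 (-0.18 to 0.69, adjusted p = 0.612), and a block on replicate number gave an interval of 0.04 to 0.48 (unadjusted p = 0.0291). With 1 sample left out it ranged from 0.11 (without negative control replicate 2) to 0.42 (without CD73 siRNA replicate 2, unadjusted p = 0.0439), and it was 0.13 without CD73 siRNA replicate 1. HSPA1A and HSPA1B together were between 6.60% and 7.85% of the level of HSPA8 in the CD73 siRNA samples and between 6.26% and 8.68% in the controls, so the balance of inducible to constitutive HSP70 overlapped too. The remaining HSP70 and HSP110 genes had smaller differences. HSPH1, a nucleotide exchange factor for HSP70, had a log2 fold change of 0.17, HSPA14 of 0.09, the mitochondrial HSPA9 of 0.04 and HSPA4 of -0.0033, with adjusted p from 0.691 to 0.994. Without negative control replicate 1, HSPH1 was at 0.08 and HSPA9 at -0.03. A second Ensembl identifier with the symbol HSPA14, not used here, was below 1 RPKM in every sample.

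The genes of the cytosolic HSP90 isoforms compared differently between the groups. HSP90AA1 encodes the inducible isoform and lies on the reverse strand of chromosome 14, from 102080738 to 102139699 in GENCODE release 29 (GRCh38). It measured 468, 400 and 406 RPKM with CD73 siRNA and 223, 326 and 359 RPKM in the negative controls, for replicates 1, 2 and 3. All 3 CD73 siRNA samples lay above all 3 controls, and negative control replicate 1 was far below the others. The means were 425 ± 37.3 and 303 ± 71.2 RPKM (SD, n = 3 each), a ratio of 1.40. The limma fit gave a log2 fold change of 0.51 with a standard error of 0.18 (95% interval 0.11 to 0.92, unadjusted p = 0.0193, adjusted p = 0.353). Without negative control replicate 1 it was 0.31 (unadjusted p = 0.0276), and without negative control replicate 3 it was 0.65 (unadjusted p = 0.00767). Leaving out 1 control could thus move the estimate either way and, in the second case, past the study's limit. Without negative control replicate 3, 258 of all genes tested were past it.

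HSP90AB1, the constitutive isoform on chromosome 6, showed no such gap. It was at 1125, 957 and 1104 RPKM with CD73 siRNA and at 1082, 940 and 1120 RPKM in the negative controls, and the values of a replicate number lay close together in both groups. Its estimated log2 fold change was 0.02 (-0.23 to 0.27, adjusted p = 0.96). HSP90AA1 was thus at 41.5%, 41.8% and 36.8% of the level of HSP90AB1 in the CD73 siRNA samples and at 20.6%, 34.7% and 32% in the controls. These ratios did not overlap between the groups, and the share in negative control replicate 1 was the lowest. No test was made of the ratio. Windows of 50 bases shared with other genes made up 14.0% of HSP90AA1 and 16.6% of HSP90AB1, and the pseudogene HSP90AA2P, at 1.76 RPKM in negative control replicate 1 and 3.31 to 4.31 RPKM in the other samples, was lowest in the same library as its parent gene. TRAP1, the mitochondrial HSP90, was at 13.7 ± 1.12 and 15.5 ± 0.598 RPKM (SD, n = 3 each), and its log2 fold change was -0.16 (-0.40 to 0.07). Of the exons of TRAP1, 29.3% overlap other genes on either strand and 1.2% on the same strand. It shares 21.2% of its windows with DNASE1.

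Co-chaperones of HSP90 had fold changes of both signs. CDC37, which brings protein kinases to HSP90, was at 39.8, 49.6 and 62.2 RPKM with CD73 siRNA and at 57.9, 60.8 and 70.8 RPKM in the negative controls. Replicate 3 was the highest in both groups, and CD73 siRNA replicate 3 lay above negative control replicates 1 and 2, so the groups overlapped. Within each number the CD73 siRNA sample was lower. The log2 fold change of -0.33 had an adjusted p of 0.455 without regard to the numbers (95% interval -0.71 to 0.04) and an unadjusted p of 0.0082 with the replicate number as a block (-0.55 to -0.12, adjusted p = 0.125). It was -0.18 without CD73 siRNA replicate 1 (unadjusted p = 0.268) and -0.49 without CD73 siRNA replicate 3 (unadjusted p = 0.0113), both fitted without the block. FKBP5, an immunophilin that binds HSP90 and is induced by glucocorticoids, was at 4.82, 5.20 and 5.90 RPKM with CD73 siRNA and at 2.13, 4.45 and 5.07 RPKM in the negative controls. Negative control replicate 1 was the outlying value here as well. FKBP5 had a log2 fold change of 0.42 (-0.12 to 0.97, adjusted p = 0.499), and 0.13 without that sample. Under the block its interval was 0.05 to 0.79 (unadjusted p = 0.0319).

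AHSA1, which stimulates the ATPase of HSP90, had a log2 fold change of 0.38 (-0.02 to 0.77, adjusted p = 0.426), and was higher with CD73 siRNA within each replicate number, at 61.4, 44.4 and 59.8 RPKM against 37.0, 38.1 and 51.8 RPKM. The block gave an interval of 0.10 to 0.66 (unadjusted p = 0.0157), and without negative control replicate 1 the estimate was 0.29. FKBP4, the closest relative of FKBP5 in the set, had 0.26 (-0.15 to 0.67), with 0.02 to 0.51 under the block (unadjusted p = 0.0403), and 0.07 without negative control replicate 1. STIP1, the adaptor between HSP70 and HSP90, had 0.02 (-0.19 to 0.24), the ubiquitin ligase STUB1 -0.04 (-0.30 to 0.22) and CHORDC1 -0.04 (-0.29 to 0.21). CHORDC1, with the longest run of heat shock elements shown above, was at 24.0 ± 1.72 RPKM with CD73 siRNA and 24.7 ± 2.26 RPKM in the controls (SD, n = 3 each). Of the exons of STUB1, 42.4% overlap those of JMJD8 on the opposite strand, and whether counting used the strand was not given in the sources used here.

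The mitochondrial chaperonin genes had opposite signs. HSPD1 encodes HSP60, the barrel that folds imported proteins, and lies on the reverse strand of chromosome 2 from 197486581 to 197516737. It was at 357, 326 and 302 RPKM with CD73 siRNA and at 166, 276 and 246 RPKM in the negative controls. The groups did not overlap, and negative control replicate 1 was the lowest by a wide margin. The means were 328 ± 27.3 and 230 ± 56.8 RPKM (SD, n = 3 each), and the ratio of 1.43 was the highest of the set. On the log2 scale the difference was 0.54 with a standard error of 0.18 (95% interval 0.12 to 0.96, unadjusted p = 0.0174, adjusted p = 0.347). Without negative control replicate 1 it was 0.33 (unadjusted p = 0.0226), and without negative control replicate 2 it was 0.69 (unadjusted p = 0.00481).

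HSPE1 encodes HSP10, the lid of the HSP60 barrel, and lies on the opposite strand within the span of HSPD1 in release 29. Its level was 3.21, 2.60 and 2.49 RPKM with CD73 siRNA and 3.56, 3.58 and 3.44 RPKM in the negative controls. Every CD73 siRNA sample lay below every control, with a log2 fold change of -0.27 (-0.54 to 0.0039, adjusted p = 0.417). With the block the interval was -0.51 to -0.03 (unadjusted p = 0.0323). Behind these values stood 81 to 113 reads, a level per length far below that of HSPD1, its partner. In release 29 HSPE1 shares 22.7% of its windows with other genes, most of all with HSPD1 itself (11.0%). It overlaps the readthrough gene HSPE1-MOB4 on the same strand over 9.7% of its exons. Counting either strand, 23.9% of its exons overlap other genes. The HSPD1 windows shared with other genes were 18.4%, and its pseudogene HSPD1P1 was also lowest in negative control replicate 1, at 2.35 RPKM against 3.74 to 5.56 RPKM elsewhere. The part of shared reads in either level was not tested.

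**Figure D2:**
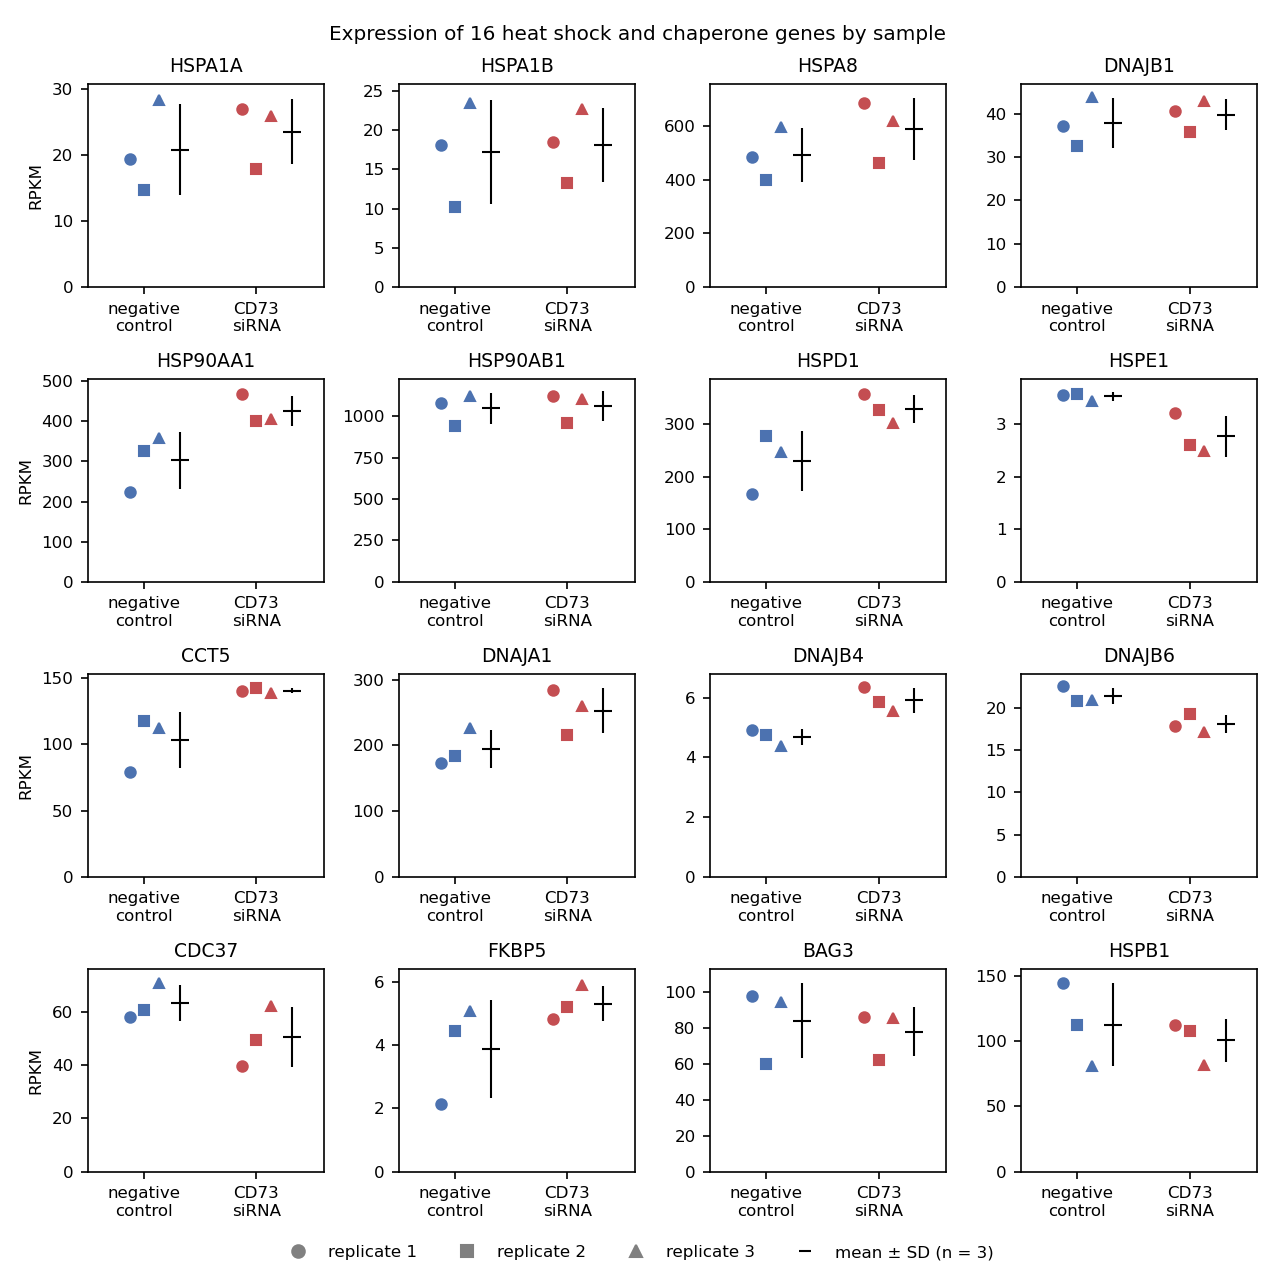
Level in RPKM of 16 chaperone genes in each of the 6 samples (blue, negative control; red, CD73 siRNA; marker shape, replicate number), with the mean and SD of each group as bars (n = 3). The groups do not overlap in HSP90AA1, HSPD1, HSPE1, CCT5, DNAJB4 and DNAJB6, whereas HSPA1A, HSPA1B, DNAJB1 and BAG3 differ mainly between replicate numbers, and negative control replicate 1 is lowest in HSP90AA1, HSPD1, CCT5, DNAJA1 and FKBP5.

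The 8 J-domain genes were split evenly, with 4 log2 fold changes above and 4 below 0. DNAJA1, a main partner of HSPA8, had the highest RPKM of them. It was at 284, 216 and 260 RPKM with CD73 siRNA and at 173, 184 and 227 RPKM in the negative controls. The groups overlapped at the edge, since CD73 siRNA replicate 2 lay below negative control replicate 3. DNAJA1 had a log2 fold change of 0.38 (0.05 to 0.70, unadjusted p = 0.0286, adjusted p = 0.372), and it was 0.30 without negative control replicate 1. DNAJA2, a close relative, was at 25.4, 23.7 and 23.4 RPKM against 17.3, 22.3 and 21.9 RPKM. All CD73 siRNA samples were above all controls, but without negative control replicate 1 the log2 fold change of DNAJA2 was 0.12 in place of 0.24 (-0.04 to 0.51).

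DNAJB4 differed by a similar amount in each replicate number. It was at 6.36, 5.85 and 5.54 RPKM with CD73 siRNA and at 4.93, 4.75 and 4.39 RPKM in the negative controls, which did not overlap. Its differences within the numbers were 0.31, 0.25 and 0.28 on log2(RPKM + 1), so its log2 fold change of 0.28 (0.04 to 0.52, unadjusted p = 0.0281, adjusted p = 0.369) did not rest on a single control. With any 1 of the 6 samples left out it was between 0.24 and 0.32.

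DNAJB6, which keeps aggregation-prone proteins soluble, was the gene with separated groups in the other direction, at 17.8, 19.3 and 17.2 RPKM with CD73 siRNA and at 22.5, 20.8 and 20.9 RPKM in the negative controls. Its log2 fold change was -0.23 (-0.45 to -0.01, unadjusted p = 0.0406, adjusted p = 0.393). DNAJB1, the J-domain gene best known for its induction by heat, was at 40.6, 35.9 and 42.9 RPKM with CD73 siRNA against 37.1, 32.6 and 44.0 RPKM in the controls. Its groups overlapped almost fully, with a log2 fold change of 0.08 (-0.23 to 0.38). DNAJA3, DNAJB2 and DNAJC7 had -0.13, -0.09 and -0.05.

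Among the BAG genes, BAG1 was separated and the others were not. BAG1 was at 5.40, 4.72 and 4.69 RPKM with CD73 siRNA and at 3.96, 4.22 and 4.43 RPKM in the negative controls. The nearest samples of the groups, 4.69 and 4.43 RPKM, were close, and the log2 fold change was 0.19 (-0.06 to 0.44, adjusted p = 0.503), or 0.16 without negative control replicate 1. BAG3, a stress-induced BAG protein that routes clients to autophagy, was at 85.9, 62.0 and 85.5 RPKM against 97.6, 60.0 and 94.5 RPKM. Replicate 2 was the lowest in both groups, and the log2 fold change was -0.09 (-0.57 to 0.39, adjusted p = 0.886). BAG2 had -0.16 (-0.40 to 0.08), with 44.2% of its exons overlapped by RAB23 on the opposite strand, and BAG5 had -0.00097 (-0.31 to 0.30).

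The small HSP genes showed no separation. HSPB1, or HSP27, was at 112, 108 and 82.0 RPKM with CD73 siRNA and at 144, 112 and 81.1 RPKM in the negative controls. In both groups replicate 3 was the lowest, and the highest value was that of negative control replicate 1. For HSPB1 the log2 fold change was -0.13 (-0.62 to 0.35, adjusted p = 0.835), and 0.06 without that sample. HSPB8 and HSPB11 had 0.02 and 0.0061.

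Of the 8 CCT subunits, CCT5 alone separated the groups. The gene spans 10249921 to 10266412 on chromosome 5, forward strand. Its level was 140, 142 and 139 RPKM with CD73 siRNA and 78.8, 118 and 113 RPKM in the negative controls. The CD73 siRNA samples lay close together, while negative control replicate 1 lay well below the other controls. CCT5 had a log2 fold change of 0.47 with a standard error of 0.15 (95% interval 0.12 to 0.82, unadjusted p = 0.0154, adjusted p = 0.343). CCT5 passed the study's limit once the replicate number entered as a block, with an unadjusted p of 0.00654 (0.18 to 0.75, adjusted p = 0.119). In that blocked fit 7.57% of all genes tested passed it, against 3.13% without the block. Without negative control replicate 1 the log2 fold change was 0.29 (unadjusted p = 0.0146), and without negative control replicate 2 it was 0.57 (unadjusted p = 0.00743). The exons of CCT5 are overlapped over 30.1% by AC012640.4 on the opposite strand. That gene was listed at 0.0261 RPKM or less in every sample. Whether counting used the strand was not given, so this value does not show whether CCT5 reads were lost to the overlap.

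The other 7 subunits had log2 fold changes from -0.18 for CCT7 to 0.19 for CCT6A. CCT7 was at 154, 175 and 159 RPKM with CD73 siRNA against 193, 188 and 173 RPKM in the controls, where the CD73 siRNA replicate 2 lay just above the lowest control (-0.40 to 0.04, adjusted p = 0.475). Under the block the interval of CCT7 was -0.36 to -0.01 (unadjusted p = 0.0433). CCT6A was at 275, 266 and 225 RPKM against 199, 252 and 220 RPKM (-0.09 to 0.48, adjusted p = 0.559), and its log2 fold change was 0.11 without negative control replicate 1. CCT3 and CCT8 had -0.09 and -0.10, CCT4 had 0.05, CCT2 had -0.02 and TCP1 had 0.0038. Summed over the subunits, the level was 1276 ± 57.5 RPKM with CD73 siRNA and 1243 ± 31.9 RPKM in the negative controls (SD, n = 3 each), and the groups overlapped. CCT6A was the highest subunit in all 6 samples, and the highest was between 1.96 and 2.52 times the lowest within a sample. The widest ratio was in negative control replicate 1, where CCT5 was the lowest subunit, while TCP1 or CCT2 was the lowest in each CD73 siRNA sample.

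**Figure D3:**
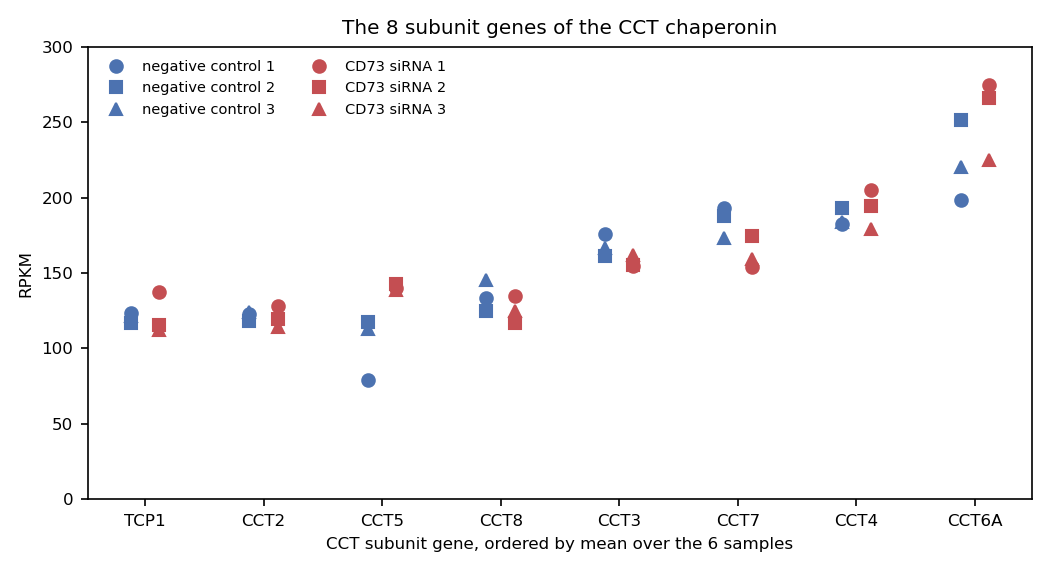
Level in RPKM of the 8 CCT subunit genes, ordered by their mean, in each sample (blue, negative control; red, CD73 siRNA; marker shape, replicate number). CCT5 is at 139 to 142 RPKM with CD73 siRNA and at 78.8 to 118 RPKM in the negative controls, and the other subunits overlap between the groups.

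Samples with the same replicate number were also compared directly. With CD73 siRNA, 12 of the 44 genes were higher within all 3 numbers (AHSA1, BAG1, CCT5, CCT6A, DNAJA1, DNAJA2, DNAJB4, FKBP4, FKBP5, HSP90AA1, HSPA8 and HSPD1), against 27.0% of all genes tested. In the other direction, 8 were lower within all 3 numbers (BAG2, CCT3, CCT7, CDC37, DNAJA3, DNAJB6, HSPE1 and TRAP1), against 24.5% of all genes. The shares among the chaperone genes, 27.3% and 18.2%, were thus near the background or below it. With the replicate number as a block, 2 of the 44 were past an unadjusted p of 0.01 (CCT5 and CDC37, in opposite directions; 7.57% of all genes), and 0 were past an adjusted p of 0.05 (0.0% of all genes). At an unadjusted p below 0.05 the block raised the count from 6 to 13 genes. Of these, 9 were higher with CD73 siRNA (20.5%, against 13.2% of all genes), namely the 5 without the block and AHSA1, FKBP4, FKBP5 and HSPA8. The 4 that were lower (9.09%, against 10.2% of all genes) were CCT7, CDC37, DNAJB6 and HSPE1.

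The differences within the numbers were unequal. Replicate 1 had the largest difference in 32 of the 44 genes (72.7%), and in 58.9% of all genes. For HSPD1 the differences on log2(RPKM + 1) were 1.10, 0.24 and 0.30 in replicates 1, 2 and 3. For HSP90AA1 they were 1.07, 0.29 and 0.18, and for CCT5 0.83, 0.27 and 0.30. These genes were thus higher with CD73 siRNA in each number, by far the most in replicate 1. NT5E also was lowest in CD73 siRNA replicate 1, and whether the size of the knockdown or the low negative control replicate 1 goes with these differences was not tested.

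**Figure D4:**
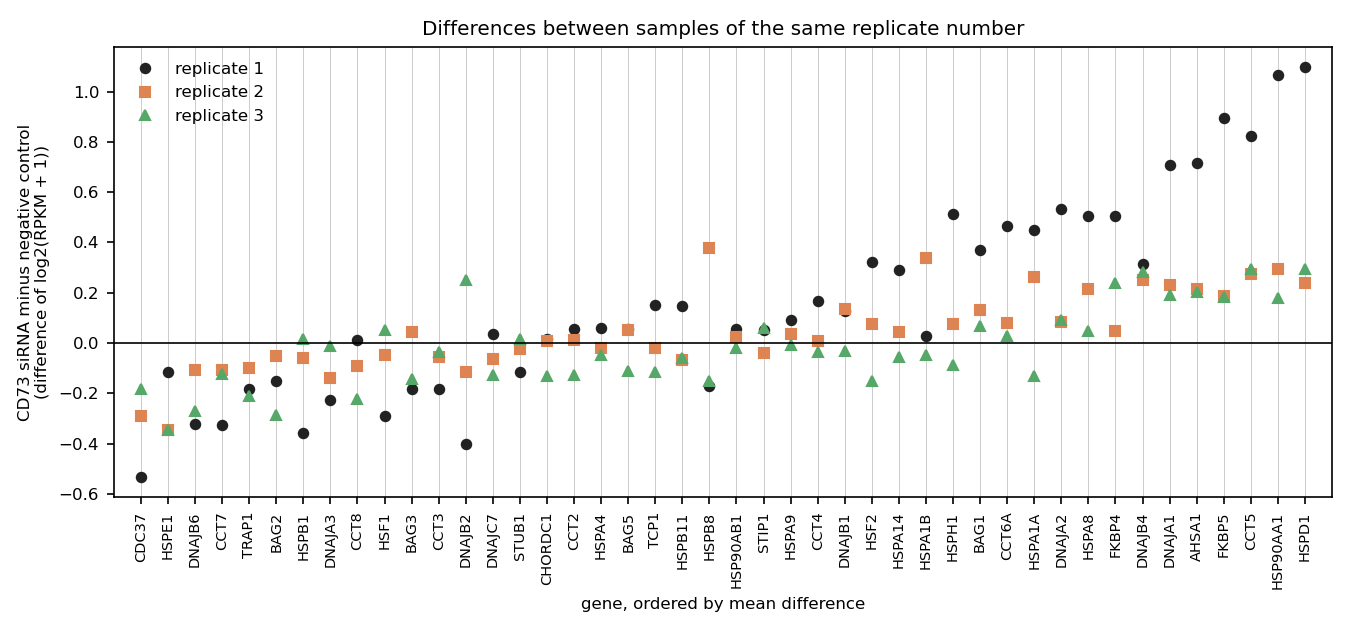
Difference between the CD73 siRNA and the negative control sample of the same replicate number, in log2(RPKM + 1), for the 44 tested genes ordered by mean difference (marker and colour, replicate number). At the right end HSPD1 reaches 1.10 in replicate 1 with 0.24 and 0.30 in replicates 2 and 3, and at the left end CDC37 is below 0 in all 3.

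The promoter elements were set beside the fold changes as a description. Of the genes with a pair of units, 19 were tested, and their log2 fold changes had a median of 0.04, with 14 above 0. Of those whose windows had no pair, 20 were tested, with a median of -0.03 and 8 above 0. The groups did not overlap in 4 of the 19 and in 4 of the 20, beside 10.3% of all genes higher and 8.07% lower. For the 7 tested genes with 3 units the median was 0.26, and the range ran from -0.23 for DNAJB6 to 0.54 for HSPD1. That median is the value of HSPA8, which was 0.13 without CD73 siRNA replicate 1. The genes with a pair were also expressed at a higher level, with a median of 106 RPKM against 23.6 RPKM. HSP90AB1 and CHORDC1, with several elements each, had log2 fold changes near 0, as described above, and CCT5 had no element in its window.

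Genes of the same network were counted from 4 lists, of which only the first included genes of the set. The counts are to be read beside the 3.13% of all genes past an unadjusted p of 0.01 and the 12.1% below 0.05 in either direction. Of 27 HSF1 target genes, 16 of them already in the set, 25 were tested and 0 were past an unadjusted p of 0.01. Of these, 4 were below 0.05, among them DNAJA1, HSP90AA1 and HSPD1 of the set, and the median log2 fold change was 0.02. Of further HSP and J-domain genes, 32 were tested and 0 were past 0.01, with 3 below 0.05 and a median of 0.0040. Of further co-chaperones of HSP70 and HSP90, 31 were tested and 0 were past 0.01, with 4 below 0.05 and a median of 0.07. Of the prefoldin subunits and CCT cofactors, 13 were tested, 1 was higher with CD73 siRNA and 0 were lower, with a median of -0.03.

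That gene was PDCL3, a phosducin-like protein that binds CCT. PDCL3 was at 30.9, 23.6 and 23.1 RPKM with CD73 siRNA and at 14.6, 19.3 and 18.7 RPKM in the negative controls, and the groups did not overlap. Its log2 fold change was 0.53 with a standard error of 0.15 (unadjusted p = 0.0083, adjusted p = 0.307). A fit blocked on replicate number gave an unadjusted p of 0.0131 for PDCL3, which is not past the limit. Under the block DNAJC30 in the second list and UNC45A, NUDC and NUDCD3 in the third were past 0.01, all higher with CD73 siRNA, 1 gene of 32 and 3 of 31 beside 7.57% of all genes. NUDC, which works with HSP90 on its clients, was at 81.0, 78.6 and 82.9 RPKM with CD73 siRNA and at 40.4, 67.3 and 63.9 RPKM in the controls, where negative control replicate 1 was again the lowest. Without that sample the log2 fold change was 0.30 in place of 0.53 for NUDC, and 0.41 in place of 0.53 for PDCL3 (unadjusted p = 0.0284). Under the block the adjusted p of DNAJC30, UNC45A, NUDC and NUDCD3 lay between 0.113 and 0.131, and that of PDCL3 was 0.14.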

How the data were processed

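RNA-seq of 6 PANC-1 samples was analysed, 3 per group, with groups and replicate numbers from the sample titles. The authors deposited a normalized value per gene and sample. The submitters' processing notes name bcl2fastq, Bowtie2 2.2.3, HTSeq 0.6.0 and hg38. The unit was taken from the values: the deposited values behaved as RPKM, since with merged exon lengths of GENCODE release 29 they gave whole reads (within 0.02) in 95.1% to 95.2% of genes under 1000 reads. The step gave the library totals, between 15009113 and 16836207. Of the identifiers, 132 were absent from release 29. Read numbers describe counting error only.

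Genes reaching 1 RPKM in 3 or more samples were compared on log2(RPKM + 1) with limma 3.58.1 (lmFit, eBayes with trend) in R 4.3.3 over all 12527 genes, with Benjamini-Hochberg adjustment, and p-values without another name are limma's. Intervals are 95% confidence intervals. The limit for changed genes in the study's text is a p below 0.01, and whether that p was adjusted is not stated. It was applied here to the unadjusted p. Exact permutation tests of 3 against 3 samples cannot go below 0.1. The study describes separate knockdown experiments. Deviations from the group means correlated at 0.20, 0.48 and 0.55 between samples of the same number. Between samples of different numbers the correlations were -0.44 to -0.01. All these correlations depend on each other, since the deviations within a group cancel out. The numbers were taken to pair the samples, on the data alone, with the weakest correlation in replicate 1.

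Every sample's value was given for 11 genes fixed by name, for members past the limit with or without the block and for members whose groups did not overlap, and for a few more chosen after their values were seen (AHSA1, CCT6A, CCT7, DNAJA1 and NUDC). The members and the gene lists were chosen with earlier results of these data known. Shared sequence was measured with 50-base windows of release 29 transcripts. Alternatives were another pseudocount, other filters, the replicate block, rescaling to TPM, quantile normalization, eBayes without trend and each sample left out. The scripts were tested on simulated data.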

Additional observations from a re-analysis of the deposited data

How the results depend on the processing

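The replicate numbers as a block moved the number of chaperone genes past an unadjusted p of 0.01 from 0 to 2 (CCT5 and CDC37) and that of all genes from 392 to 948. At an unadjusted p below 0.05 the pairing moved the count in the set from 6 to 13. Over all genes tested the share was 12.1% in either direction without the block. With the block it was 13.2% higher and 10.2% lower. With 1 sample left out, the number of chaperone genes past 0.01 ranged from 0 to 2 and that of all genes from 116 to 792. The number of chaperone genes with separated groups, 8 with all samples, ranged from 9 to 15, since fewer samples are easier to separate. The share of all genes separated in those fits was not counted. Leaving out negative control replicate 2 called CCT5 and HSPD1, and leaving out negative control replicate 3 called HSP90AA1. No chaperone gene was past an adjusted p of 0.05 in any of these fits. The median log2 fold change ranged from -0.013 to 0.053.

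Some signs turned. After rescaling to TPM, CCT2 was at 0.011, BAG5 at 0.028 and HSPA4 at 0.027, and after quantile normalization HSPB11 was at -0.014, CCT2 at 0.036, HSPB8 at -0.017 and HSPA4 at 0.001. With 1 sample left out the log2 fold changes ranged from -0.085 to 0.058 in TCP1, -0.056 to 0.093 in HSP90AB1, -0.063 to 0.064 in HSPB11, -0.109 to 0.081 in BAG5, -0.021 to 0.079 in STIP1, -0.026 to 0.235 in HSPA14, -0.316 to 0.061 in BAG3, -0.109 to 0.015 in CHORDC1, -0.091 to 0.126 in HSPB8, -0.069 to 0.08 in HSPA4, -0.064 to 0.02 in CCT2, -0.208 to 0.353 in HSPA1B, -0.348 to 0.063 in HSPB1, -0.117 to 0.009 in STUB1, -0.03 to 0.093 in HSPA9, -0.277 to 0.023 in DNAJB2, -0.268 to 0.024 in DNAJA3, -0.024 to 0.187 in DNAJB1 and -0.019 to 0.432 in HSPA1A. The cause was not tested. With 3 samples per group, the intervals given with each gene set the limit of what could be seen.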
